A study of Arabidopsis thaliana with 12 samples.

Results

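The genes described here are *Arabidopsis thaliana* genes with a single event in a splicing table deposited for plants shifted to a warmer temperature, where that event is a retained intron (intron retention, IR). They were chosen by event type and by the number of events of the gene, not by the size or direction of a change. Of 246 IR events in the table, 156 were the only event of their gene. Of these, 9 genes with a kinase in their annotation and 12 genes named by identifier were left out. This left 135 events in 135 genes, out of 638 events in 511 genes.

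Plants of the Col-0 ecotype, with no mutation or transgene, were grown for 5 weeks at 16 °C in short days of 8 h light and 16 h dark. Tissue enriched for the shoot apical meristem, with leaves of early stages, was collected from about 10 plants per sample. The 4 groups of 3 samples were plants 1, 3 and 5 days after transfer to 25 °C, and plants kept at 16 °C, collected at day 1. All warm days were set against this one 16 °C group, and since plants of days 3 and 5 had also aged, age and temperature cannot be told apart there. The table holds 1 value of the percentage spliced in (PSI, on a scale of 0 to 1) per group, and for IR it is read here, by the usual convention of MISO, as the share of transcripts that keep the intron. On the definition of PSI, the sources used here say only that one isoform served as reference. This reading was not checked here against events whose direction is known. Were the spliced isoform the reference of an event, its rise in retention would be a fall. Because there is 1 value per group, no difference was tested across replicates and no error of a single PSI can be given. Read depth per event is unknown. Changes are 25 °C minus 16 °C, and rose or fell is written only of days called by the authors, by a Bayes factor of at least 5 on merged replicates. The table holds no expression levels, so the tissue could not be checked against marker genes.

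In plants IR is the most common kind of alternative splicing. An intron is left in the mRNA when the spliceosome does not remove it, and the transcript may then stay in the nucleus, be degraded by nonsense-mediated mRNA decay (NMD) when ribosomes meet an early stop codon, or give another protein. Some retained introns carry no stop codon and are read through as coding sequence. A change in PSI alone does not tell these fates apart, nor whether the spliced or the unspliced transcript changed in amount.

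Events carry no coordinates in the table. In the TAIR10.1 reference annotation, which holds all 135 genes, 48 had exactly 1 intron that an exon of another transcript of the same gene spans, 51 had more than one and 36 had none. For the 48 genes this intron is a candidate for the event, and in 33 of them it lay between coding exons. The sequences below are the candidates of at most 150 bases between coding exons, for genes called on all 3 warm days. They are printed 5′ to 3′ on the strand of the gene. Capitals mark the 2 bases at each end of the intron and, where there is one, the first stop codon in the reading frame of the spliced transcript.
AT1G60700 (chr1:22352357-22352453, minus strand): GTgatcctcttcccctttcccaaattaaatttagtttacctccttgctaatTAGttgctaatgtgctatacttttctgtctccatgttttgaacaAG
*OVA1* (chr3:20536213-20536325, minus strand): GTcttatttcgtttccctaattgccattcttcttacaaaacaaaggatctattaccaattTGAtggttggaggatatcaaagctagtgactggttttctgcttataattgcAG
*PAT2* (chr3:20570721-20570792, minus strand): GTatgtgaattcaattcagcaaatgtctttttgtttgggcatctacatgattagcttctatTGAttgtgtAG
*POB1* (chr3:22797938-22798053, plus strand): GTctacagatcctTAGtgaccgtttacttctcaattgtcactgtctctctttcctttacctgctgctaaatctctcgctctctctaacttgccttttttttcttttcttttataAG
*PP7* (chr5:25561852-25561939, minus strand): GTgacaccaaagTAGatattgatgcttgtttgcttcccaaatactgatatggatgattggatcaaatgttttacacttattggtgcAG
AT4G02540 (chr4:1118898-1119006, plus strand): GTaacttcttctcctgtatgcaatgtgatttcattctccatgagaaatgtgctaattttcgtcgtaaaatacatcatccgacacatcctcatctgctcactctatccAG
AT4G32440 (chr4:15658273-15658396, plus strand): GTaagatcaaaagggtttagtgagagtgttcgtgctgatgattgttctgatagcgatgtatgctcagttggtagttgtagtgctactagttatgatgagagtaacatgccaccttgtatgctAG
AT4G38350 (chr4:17963510-17963581, minus strand): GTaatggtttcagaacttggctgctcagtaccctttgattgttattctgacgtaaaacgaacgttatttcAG
The first 5 of these introns meet a stop codon in frame, and the last 3 do not.

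Where the stop falls in the protein differed among these genes. In *PAT2*, which encodes a subunit of an adaptor complex for transport to the vacuole, the intron follows codon 97 of a protein of 1115 residues, and the stop begins at base 62 of the 72-base intron. In *POB1*, a BTB domain protein gene, the intron follows codon 556 of 561, so that only the last residues lie beyond it. *PP7*, a serine/threonine phosphatase, has its stop at base 13 of 88, after 297 of 413 codons. *OVA1*, the methionyl-tRNA synthetase of organelles, has it at base 61 of 113, after 513 of 616 codons, and AT1G60700, a forkhead-associated domain gene, at base 52 of 97, after 445 of 525. Among the introns with no stop, that of AT4G38350, a Patched family gene, has 72 bases, a multiple of 3, so that the reading frame continues beyond it. Those of AT4G02540 (109 bases) and of the Tudor-like RNA-binding protein gene AT4G32440 (124 bases) are no multiple of 3, so that the frame shifts after the intron.

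Over all 33 candidates between coding exons, 21 met a stop in frame and 12 did not, and 8 were both free of a stop and a multiple of 3 in length. The candidates were 67 to 326 bases long, with a median of 101, and 32 of them began with gt and ended with ag. Median PSI was lower for the candidates with a stop, in the same 33 genes at both temperatures. The median of the mean PSI at 25 °C was 0.21 for the 21 genes with a stop and 0.52 for the 12 without, and the medians at 16 °C were 0.21 and 0.55. At 16 °C the genes with a stop spanned 0.08 to 0.69, and 19 of the 21 were below 0.5, while those without a stop spanned 0.03 to 0.98, with 5 below 0.5 and 7 at or above it. The 2 sets overlap, and this is a description of candidate introns with no test. The direction of the change did not separate them: the mean change was positive in 9 and negative in 12 of the genes with a stop, and positive in 6 and negative in 6 of those without.

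**Figure D1:**
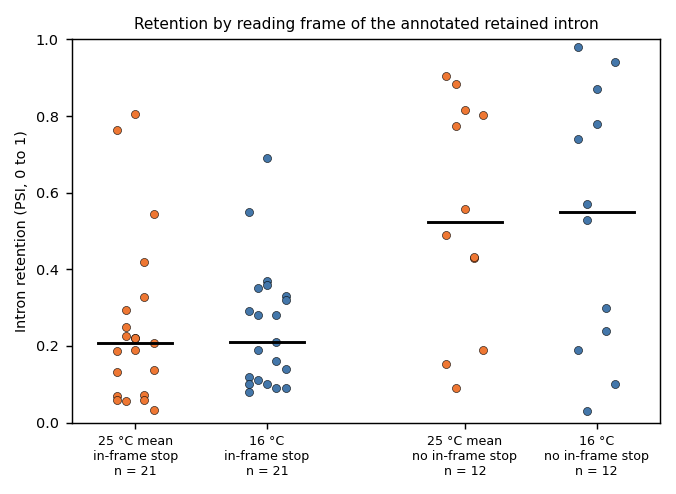
PSI (0 to 1, vertical axis) of the 33 genes whose only annotated retained intron lies between coding exons, as the mean of the 3 days at 25 °C and at 16 °C, for the 21 introns with an in-frame stop codon and the 12 without; each point is a gene and each bar a median. The medians are 0.21 at both temperatures with a stop, and 0.52 at 25 °C and 0.55 at 16 °C without.

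After 1 day at 25 °C, retention fell more often than it rose among the single retained introns. It rose in the remorin gene AT2G41870, *POB1* and the nudix hydrolase gene *NUDX13*, and fell in AT1G05860, AT4G02540 and *PLDGAMMA2*. Of the 135 events, 80 (59.3%) were called on this day, against 59.9% of all 638 events in the table, which lists only events called on at least 1 day. There were 30 rises and 50 falls, so that 37.5% of the called events were higher, against 46.5% of called events among the other 111 IR events and 45.8% of all called events. Rises were called in 27.4% and falls in 32.4% of all events. The median size of a called change was 0.125, and called changes ran from a fall of -0.34 to a rise of 0.33.

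On day 3 the numbers were even, with 31 rises and 31 falls. The 62 called events (45.9%) compare with 58.0% of all events, where 30.7% rose and 27.3% fell, and with 64.0% of the other IR events. The largest called change was a rise of 0.51 in AT2G41870. Called changes with a size of at least 0.2 were counted among the 135 events. There were 9 rises and 10 falls on day 1, 10 and 3 on day 3, and 8 and 5 on day 5. Among all 638 events, a larger base, the numbers were 55 and 50, 55 and 39, and 54 and 35. On day 5 there were 31 rises and 38 falls among 69 called events (51.1%), against 52.8% of all events, where 27.0% rose and 25.9% fell. The largest called changes on that day were a rise of 0.37 in AT2G41870, tied with that of the O-fucosyltransferase family gene AT1G14970, and a fall of -0.30 in the pectin acetylesterase gene AT4G19410. The median size of a called change was 0.14 on day 3 and 0.13 on day 5, and no called change on any day was below 0.05. None of these shares was tested against the rest of the table, because events are not replicates and events that were never called are not analysed here.

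Averaged over the 3 warm days, PSI exceeded the 16 °C value in 61 genes and lay under it in 74 (45.2% higher, against 52.3% of the other IR events and 50.6% of all events). The mean change ran from -0.290 to 0.403, and its median size was 0.103, against 0.127 for the other IR events and 0.113 for all events. Median PSI of the 135 introns was 0.370, 0.400 and 0.400 on days 1, 3 and 5 at 25 °C, against 0.350 at 16 °C. The higher median level does not give the direction in most introns. PSI was under the 16 °C value in 75, 74 and 73 of the 135 on these days, against 320, 312 and 310 of all 638 events. The median signed change per intron was -0.050, -0.030 and -0.040 on these days, against -0.010, 0.020 and 0.020 for all events. Each event was called on at least 1 day, and no called change was below 0.05. This median therefore mostly follows the split of signs and is not the size of a typical change.

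The direction varied with the level at 16 °C. Among 61 introns with a 16 °C PSI below 0.3, the warm mean was above the cool value in 35 and below it in 26. Among 36 between 0.3 and 0.7 it was higher in 16 and lower in 20, and among 38 above 0.7, higher in 10 and lower in 28. PSI is bounded by 0 and 1, and the change is computed from the same 16 °C value, so that a tilt of this kind is partly built in. All events of the table showed 71.4%, 49.5% and 27.8% higher in the same classes, against 57.4%, 44.4% and 26.3% of the single retained introns. Other IR events showed 71.1%, 57.8% and 17.9%.

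**Figure D2:**
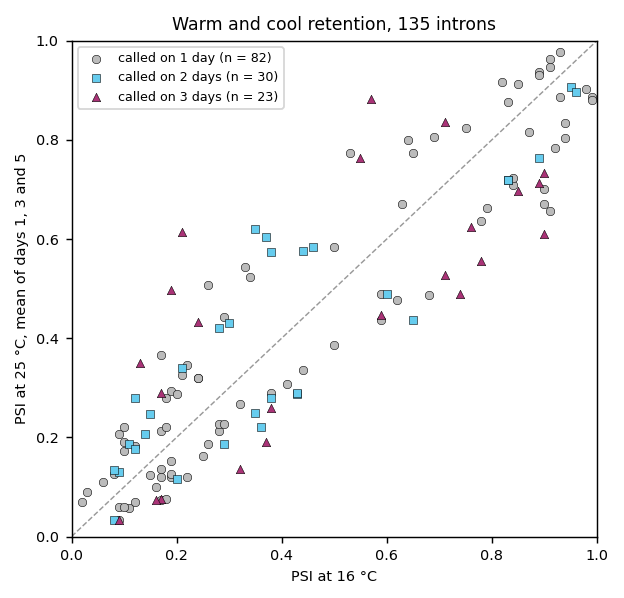
Mean PSI of days 1, 3 and 5 at 25 °C (vertical axis) against PSI at 16 °C (horizontal axis), both 0 to 1, for the 135 single retained introns; symbols give the number of days called and the dashed line marks equal values. Of the points, 61 lie above the line and 74 below, and 28 of the 38 points with a 16 °C PSI above 0.7 lie below it.

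Values of all groups are given for the 23 genes called on all 3 days. They are 17.0% of the single retained introns, against 27.9% of the other IR events and 21.9% of all events. The 3 comparisons share the 16 °C samples. Retention rose in 8 of the 23 genes and fell in 15. The same split was not counted over all events called on all 3 days, so no tilt of these genes is read from it.

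The strongest rise was in AT2G41870 (chromosome 2, coding region 17471119 to 17472519), a remorin, one of a family of plant proteins that attach to the inner face of the plasma membrane. Its PSI was 0.54, 0.72 and 0.58 on days 1, 3 and 5 at 25 °C, against 0.21 at 16 °C, so that the intron was kept in over 0.5 of transcripts on each warm day and in fewer at 16 °C. Next came AT5G65170, a gene for a VQ motif protein, a family that binds WRKY transcription factors, with 0.88, 0.86 and 0.91 at 25 °C against 0.57 at 16 °C. Its single intron, of 165 bases, is the candidate, with no stop in frame. *NUDX13* (AT3G26690), a nudix hydrolase of the kind that cleaves nucleoside diphosphate compounds, had 0.47, 0.53 and 0.49 against 0.19 at 16 °C, and its candidate intron of 64 bases does not lie between coding exons. In *POB1* (AT3G61600) PSI was 0.79, 0.77 and 0.73 at 25 °C and 0.55 at 16 °C. All warm values of these genes lay above the cool value by at least 0.18.

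AT4G38350 belongs to the Patched family, whose relatives in animals include sterol transporters. Its retention was 0.45, 0.43 and 0.42 at 25 °C, against 0.24 at 16 °C. The long non-coding RNA AT4G38552 differed from the other rising genes in its course and stood higher on each later day. Its PSI was 0.28, 0.36 and 0.41 on days 1, 3 and 5 against 0.13 at 16 °C. The reference has no intron in AT4G38552, so its event could not be placed, and a gene on the other strand overlaps it. *UBC9* (AT4G27960), a ubiquitin-conjugating enzyme, had 0.27, 0.32 and 0.28 against 0.17 at 16 °C. The glycosyltransferase family gene AT1G75420 had 0.83, 0.84 and 0.84 against 0.71, so that its intron was kept in most transcripts at both temperatures.

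Among the 15 genes with a fall, the lead was taken by AT1G05860, a gene for a protein of unknown function, with 0.56, 0.61 and 0.66 on days 1, 3 and 5 at 25 °C against 0.90 at 16 °C. AT4G02540, a C1 domain gene, had 0.52, 0.48 and 0.47 against 0.74, and AT4G32440, the Tudor-like gene, 0.55, 0.57 and 0.55 against 0.78. Both are among the introns without an in-frame stop printed above. *PLDGAMMA2* (AT4G11830), a phospholipase D, which releases phosphatidic acid from membrane lipids, had 0.50, 0.54 and 0.54 at 25 °C and 0.71 at 16 °C. In AT4G19410, an enzyme gene of pectin in the cell wall, PSI was 0.82, 0.73 and 0.59 against 0.89, with a lower value on each later day.

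In *PAT2* (AT3G55480) retention was 0.13, 0.14 and 0.14 at 25 °C against 0.32 at 16 °C, and in AT1G60700 it was 0.17, 0.20 and 0.20 against 0.37. In both, the warm values lay close together and well under the cool one, and both candidate introns hold a stop. *OVA1* (AT3G55400) had 0.07, 0.08 and 0.07 against 0.16 at 16 °C, the topoisomerase gene AT2G32000 0.09, 0.08 and 0.06 against 0.17, and *PP7* (AT5G63870) 0.04, 0.03 and 0.03 against 0.09. These 3 introns were rarely kept at either temperature. Their changes are small in PSI, but the authors called them on every day.

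The remaining falls concerned introns kept in a larger share of transcripts. The thaumatin family gene AT5G24620, related to pathogenesis proteins, had 0.75, 0.73 and 0.72 at 25 °C against 0.90 at 16 °C. *ATSRL1* (AT5G37370), a PRP38 family protein related to a spliceosome component of yeast, had 0.71, 0.70 and 0.68 against 0.85. *VCS* (AT3G13300), the scaffold of the mRNA decapping complex, had 0.60, 0.62 and 0.65 against 0.76. In the glycerol-3-phosphate dehydrogenase gene *GPDHC1* (AT2G41540) PSI was 0.44, 0.46 and 0.44 against 0.59, and in the cytochrome P450 gene *CYP72A13* (AT3G14660) 0.27, 0.25 and 0.26 against 0.38.

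**Figure D3:**
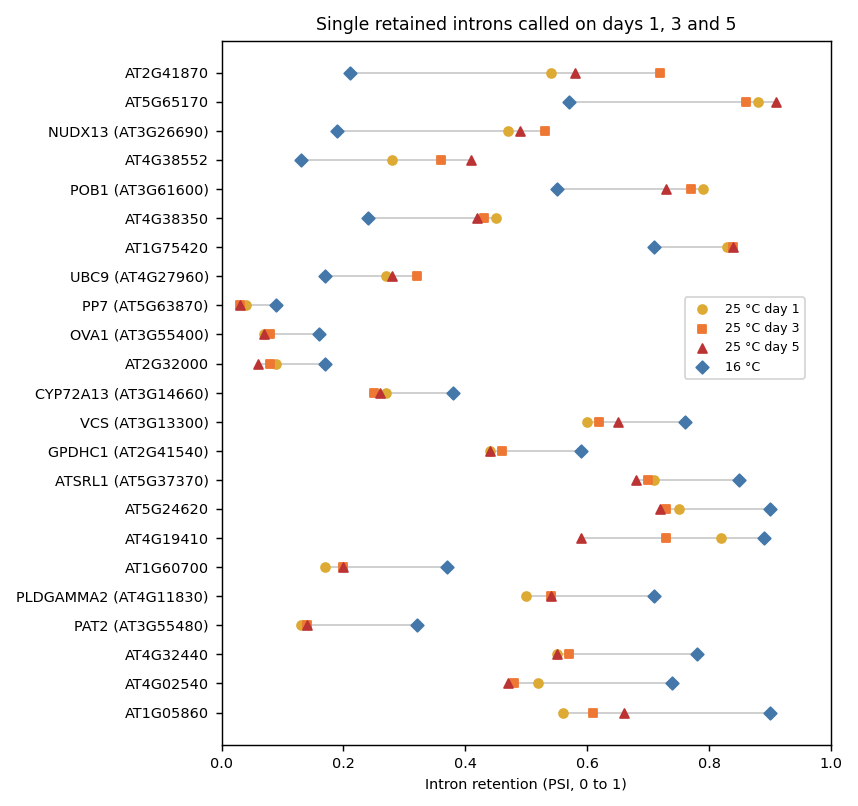
PSI (0 to 1, horizontal axis) of the 23 single retained introns called on all 3 days, with 1 symbol each for 25 °C on days 1, 3 and 5 and for 16 °C, ordered by mean change. The 8 genes at the top had all 3 warm values above the 16 °C value (AT2G41870: 0.54, 0.72 and 0.58 against 0.21), and the 15 below had them under it.

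Sorted by role, each gene in 1 of 8 groups, no group moved in a single direction. The groups were made from the annotation text and known roles, with the values in view, and their counts are descriptions.

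Genes of RNA processing, export and ribosome making (17) had a higher mean in 9 and a lower mean in 8. Besides *VCS*, *ATSRL1* and AT4G32440, calls came for the KH domain gene AT2G25970, with 0.69, 0.61 and 0.51 at 25 °C against 0.37 at 16 °C (days 1 and 3), and another KH domain gene, AT5G15270, with 0.51, 0.41 and 0.41 against 0.29 (day 1). KH domains bind RNA. AT1G76720, annotated as a translation initiation factor, had 0.72, 0.84 and 0.76 against 0.53, called on day 3. AT1G54770, whose product resembles the Fcf2 factor of pre-rRNA processing, had 0.59, 0.69 and 0.73 against 0.90, called on day 1. *SAR1* (AT1G33410), a nucleoporin, had 0.95, 0.92 and 0.88 against 0.82 and *EMB2766* (AT2G45000), a component of the pore, 0.31, 0.30 and 0.25 against 0.20, both called higher on day 1. *SAC3C* (AT3G54380), a homologue of a yeast export factor of mRNA, fell on days 1 and 3, with 0.21, 0.22 and 0.23 against 0.36. *NUFIP* (AT5G18440), which takes part in the assembly of small nucleolar RNPs, fell on day 5 to 0.43 against 0.59, with 0.50 and 0.54 on days 1 and 3.

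Of the genes for transcription, chromatin and DNA maintenance (21), 8 had a higher and 13 a lower mean. *TOP3A* (AT5G63920), a topoisomerase that resolves recombination intermediates, had 0.32, 0.40 and 0.32 against 0.22 at 16 °C, and *SUV2* (AT5G45610), a checkpoint protein of DNA damage, had 0.20, 0.25 and 0.21 against 0.10, each called higher on day 3. *BRCC36A* (AT1G80210), a homologue of an animal repair factor, fell on days 3 and 5, with 0.21, 0.20 and 0.15 against 0.29. *TBP1* (AT3G13445), the TATA-binding protein, rose on days 1 and 5, with 0.20, 0.21 and 0.21 against 0.14, and its candidate intron of 106 bases holds a stop in frame. *PTM* (AT5G35210), a PHD finger protein of the chloroplast envelope, fell on days 3 and 5 (0.11, 0.12 and 0.12 against 0.20). *SUO* (AT3G48050), which acts with microRNAs in the repression of translation, fell on day 1 to 0.18 against 0.29, with 0.25 on both later days. *FDM3* (AT3G12550), of a family that acts in RNA-directed DNA methylation, rose on day 5 to 0.88 against 0.65, with 0.71 and 0.73 before. The light signalling genes *TZP* (AT5G43630) and *HRB1* (AT5G49230) had 0.97, 0.97 and 0.99 against 0.93, called on day 5, and 0.14, 0.19 and 0.23 against 0.26, called on day 1.

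The FAR1 and FHY3 family of transposase-derived factors, known from phytochrome signalling, had 3 of its 14 genes in the table. *FRS1* (AT4G19990) fell on day 5 to 0.41 against 0.59 at 16 °C, with 0.44 and 0.46 on days 1 and 3. *FRS4* (AT1G76320), whose intron was kept in nearly all transcripts at 16 °C, fell on day 1 to 0.91 against 0.99 and stood at 0.89 and 0.86 later. The family's other event is an alternative 3′ site of *FRS2*, with 0.66, 0.77 and 0.57 against 0.79, called on day 5, and its PSI does not measure retention. Falls were called in 32.4%, 27.3% and 25.9% of all events on days 1, 3 and 5. With 3 genes and a list set with earlier results known, nothing about the family is read from these values.

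Protein turnover, folding and autophagy (19 genes) held 7 with a higher and 12 with a lower mean. Autophagy delivers cell contents to the vacuole in double membranes, and 4 of 25 core genes were in the table, all of them as single retained introns with warm values below the cool one. *ATG5* (AT5G17290), part of the conjugate that attaches ATG8 to lipids, had 0.07, 0.07 and 0.09 at 25 °C against 0.18 at 16 °C, called on day 5. *ATG6* (AT3G61710), of the lipid kinase complex that starts the membrane, had 0.07, 0.12 and 0.11 against 0.16, called on day 1. ATG101 (AT5G66930), of the initiating kinase complex, had 0.05, 0.06 and 0.07 against 0.10, called on day 1, and the C54 peptidase gene AT3G59950, of the ATG4 kind that trims ATG8, 0.28, 0.32 and 0.27 against 0.38, called on day 5. In all, 2 of the 4 fell on day 1, 0 on day 3 and 2 on day 5, while falls were called in 32.4%, 27.3% and 25.9% of all events on these days. With 4 genes and a list set with the values known, nothing about autophagy is read from these counts.

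Besides *UBC9* and *POB1*, which rose, *UPL7* (AT3G53090), a ubiquitin ligase, rose on day 1 to 0.15 against 0.08, with 0.11 and 0.12 later. *ZCF61* (AT1G59560, also *DAL2*), an E3 ligase, fell on day 1 to 0.12 against 0.22 and had the same value later. The RING gene AT3G03550 had 0.76, 0.76 and 0.77 against 0.89, called lower on days 1 and 5. The reference has no intron in AT3G03550, so its event could not be placed. The COP9 signalosome, which controls cullin ligases, was present with 1 of its 10 listed genes: *FUS5* (AT1G02090, subunit CSN7) fell on day 5 to 0.12 against 0.17, with 0.14 and 0.15 before. *ATERDJ3A* (AT3G08970), a DnaJ protein of the endoplasmic reticulum, had 0.44, 0.51 and 0.36 against 0.65, and *Fes1B* (AT3G53800), related to an exchange factor of Hsp70, 0.25, 0.26 and 0.24 against 0.35, and each fell on days 1 and 5. *SOL1* (AT1G71696), a carboxypeptidase that processes CLE peptides, had 0.51, 0.57 and 0.55 against 0.33, called higher on day 3.

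Plastid and mitochondrial genes (14) had 8 higher and 6 lower means. The largest change was in AT1G61970, of the mitochondrial transcription termination factor family, with 0.59, 0.65 and 0.73 at 25 °C against 0.91 at 16 °C, called on day 1. *MAP1B* (AT3G25740), a methionine aminopeptidase, had 0.22, 0.31 and 0.31 against 0.12, called on days 3 and 5, and the tetratricopeptide gene *EMB2654* (AT2G41720) had 0.42 on each day against 0.28, called on days 1 and 5. *CRTISO* (AT1G06820), which isomerises carotenoids, fell on days 1 and 3 to 0.03 against 0.08, with 0.04 on day 5, and *MENG* (AT1G23360), of phylloquinone synthesis, fell on days 1 and 3, with 0.28, 0.24 and 0.32 against 0.38. *ARC5* (AT3G19720), the dynamin of chloroplast division, fell on day 1 to 0.77 against 0.87, with 0.85 and 0.83 later. *AGY1* (AT4G01800), the SecA motor of thylakoid import, was called higher on day 5 at 0.29 against 0.24, although its value of 0.39 on day 3 was further away and carried no call.

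Genes of membranes, transport, lipids and the cell wall (23) were higher in 11 and lower in 12. AT1G14970, an O-fucosyltransferase family gene, had 0.62, 0.52 and 0.72 at 25 °C against 0.35 at 16 °C, called on days 1 and 5. The actin-bundling villin gene *VLN1* (AT2G29890) rose on day 5 to 0.86 against 0.64, with 0.77 on both earlier days. *UGT80B1* (AT1G43620), a sterol glucosyltransferase, fell on day 5, with 0.30, 0.37 and 0.34 against 0.44. Of 7 phospholipase D genes on the list, *PLDGAMMA2* and its neighbour *PLDGAMMA3* (AT4G11840) were in the table. The neighbour, which has 2 IR events and so is not one of the 135 genes, showed one with 0.79, 0.88 and 0.95 against 0.40 and one with 0.67, 0.68 and 0.58 against 0.84. The gamma genes are neighbours of similar sequence, and how reads that fit several of them were treated is not stated, so their PSI is uncertain.

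Metabolic and signalling genes (13) had 6 higher and 7 lower means, from -0.167 in AT5G24620 to 0.307 in *NUDX13*. AT2G02770, of the phosphopantetheinyl transferase family, had 0.25, 0.29 and 0.32 at 25 °C against 0.43 at 16 °C, called on days 1 and 3. Its coordinates in the annotation text (775657 to 779786) reach beyond the reference gene (778345 to 779786). It is unknown whether the event lies inside that gene model. Near the lower bound of PSI, the histidine synthesis gene *HISN5B* (AT4G14910) had 0.06, 0.07 and 0.08 at 25 °C against 0.02 at 16 °C, and *ACAT2* (AT5G48230), of the mevalonate pathway, 0.08, 0.06 and 0.04 against 0.09, both called on day 5. Proteins of unknown function (17) had 9 higher and 8 lower means, with the widest falls in AT1G05860 and AT4G02540 and the widest rise in *RUS3* (AT1G13770), with 0.50, 0.62 and 0.40 against 0.26, called on day 3.

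**Figure D4:**
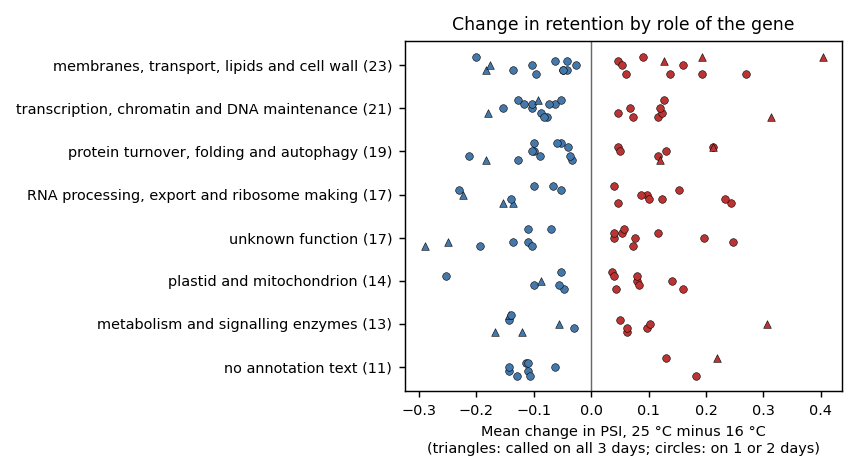
Mean change in PSI (25 °C minus 16 °C, horizontal axis) of each of the 135 genes by role, with the number of genes in brackets; red is higher and blue lower in the warm, triangles were called on all 3 days and circles on 1 or 2. Every group has points on both sides of 0, from 3 higher and 8 lower among genes with no annotation text to 8 higher and 6 lower among plastid and mitochondrial genes.

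Genes with no annotation text (11) are RNA genes and pseudogenes in the reference: 3 long non-coding RNAs, 2 other non-coding RNAs, 5 pseudogenes and the microRNA gene *MIR171b* (AT1G11735). Mean PSI was lower in 8 of them and higher in 3, and their median at 16 °C was 0.780, against 0.350 for all 135. The family of *MIR171b* targets GRAS transcription factors of the shoot meristem, and the reference has no intron in this gene, so the event could not be placed. Its PSI was 0.39, 0.52 and 0.52 at 25 °C against 0.62 at 16 °C, called on day 1. The non-coding RNA AT3G04485 had 0.50, 0.56 and 0.51 against 0.34, called on day 3, and AT4G03935 had 0.84, 0.90 and 0.90 against 0.99, called on day 1.

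Day 5 was set against day 1 at 25 °C as a description, with no call, and most introns stayed close. The median size of the difference was 0.03, and in 18 of 135 genes (13.3%, against 11.4% of all events) it was 0.1 or more. The value on day 5 was further from the 16 °C value than on day 1 in 62 genes, nearer in 62 and equally far in 11. The same counts were 262, 317 and 59 for all 638 events, and 43, 63 and 5 for the other 111 IR events. Among the 5 largest falls over the days, AT2G16990, a transporter of the major facilitator family, had 0.81, 0.71 and 0.58 against 0.90 at 16 °C. It was called on day 3 only, so its values of days 1 and 5 carry no call. AT4G19410, given above, was called on all 3 days. The values of both genes moved on from the cool value. AT2G25970, given above, and AT2G40435, which resembles a transcription regulator, moved back towards it, and *RUS3* did so after day 3. AT2G40435 had 0.88, 0.81 and 0.73 against 0.69, called on day 1. The difference of -0.10 in *RUS3* was tied with that of AT5G15270, given above. Of the 5 largest rises, AT1G61970, AT1G54770 and the non-coding RNA AT5G36002 (0.77, 0.81 and 0.92 against 0.94, called on day 1) came back towards the cool value. AT4G17310, a protein of unknown function called on day 5, stood at 0.58, 0.64 and 0.79 against 0.63, and thus crossed it, and *FDM3* moved further away.

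**Figure D5:**
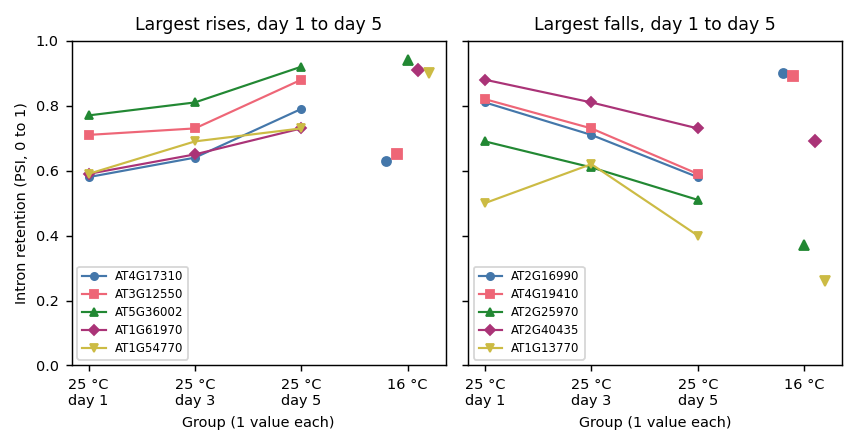
PSI (0 to 1) on days 1, 3 and 5 at 25 °C, joined by lines, and at 16 °C (separate points, spread sideways so that they can be seen), for 5 single retained introns with the most positive and 5 with the most negative difference of day 5 minus day 1 (AT1G13770, *RUS3*, is tied for the last place with AT5G15270, which is not drawn). AT1G61970, AT1G54770 and AT5G36002 return towards their 16 °C values, while AT2G16990 and AT4G19410 move from 0.81 and 0.82 on day 1 to 0.58 and 0.59 on day 5, away from 0.90 and 0.89. AT2G16990 was called on day 3 only.

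In gene structure the 135 genes were close to the other genes of the table. An annotated retained intron was present in 99 of them (73.3%), against 73.4% of the other genes with an IR event, 53.7% of the genes in the table without one and 62.0% of all genes in the table. The genes were chosen for an IR event in the splicing table, not by this annotation. A share above that of genes without one may follow in part from the choice, which was not tested. Their median length was 3.19 kb with 9 introns, against 3.45 kb and 10 for all genes in the table, and the median intron length of a gene was 109 bases, against 112. Intron GC content was 33.7%, against 33.8%. Genes with a higher and with a lower mean differed little in these measures, with 9 and 7.5 introns and median intron lengths of 112 and 108 bases. In 6 of the 135 genes, AT4G38552, AT3G03550 and *MIR171b* included, the reference has no intron at all. A gene on the other strand overlapped 33 of the 135 genes (24.4%, against 26.3% of all genes in the table), *OVA1*, *PAT2*, AT4G02540, *NUDX13* and AT4G38552 included. The libraries were made with a stranded kit, but how strand entered the estimates is not stated, and the part of reads from the partner gene was not tested. Of the genes overlapped on the other strand 14 had a higher and 19 a lower mean, and of the 102 others 47 and 55, with a median size of the mean change of 0.103 in both. A gene on the same strand overlapped 10 of the 135 genes, AT4G19410 and AT3G59950 included, against 39 of the 510 table genes in the reference. Of these 10 genes, 7 had a higher and 3 a lower mean. Strand cannot separate the reads of such pairs, and their part was not tested.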

How the data were processed

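RNA of 12 samples, 3 in each of 4 groups taken from the sample titles, was sequenced. The authors mapped reads with TopHat2 to TAIR10, assembled transcripts with Cufflinks, listed events with custom scripts and used MISO for PSI; no versions are stated. Events needed at least 20 isoform-specific reads in replicates and less difference in PSI within than between groups. The deposited PSI is a fraction, 1 value per group, rounded to 2 decimals. The column of called days was used as deposited; no other column holds the authors' comparisons. Differences, counts and medians were computed with Python 3.11.15, with no test, because each group has 1 value. Gene structure and sequences came from RefSeq TAIR10.1: of 124 genes with coordinates in the annotation text, 122 match a coding span there exactly, and 123 lie inside the gene. The counting and reading-frame steps were tested on simulated data. The genes, lists and role groups were chosen with earlier results of these data known. Any of the 135 genes could be named; full values were required for those called on all 3 days, for the 5 largest rises and falls between days 1 and 5, and for the largest changes in each role group. Of the 5 gene lists, that of mRNA decapping and nonsense-mediated decay had 1 of 10 genes in the table (*VCS*).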

Additional observations from a re-analysis of the deposited data

How the results depend on the processing

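Leaving out introns with a 16 °C PSI outside 0.05 to 0.95, keeping all 156 genes with a single IR event, or leaving out genes without an annotation text kept each of the 14 counts, shares and medians of called days and means within 1.5 times, or within the exact 95% binomial interval of a share. The median of the warm days in place of their mean did so for both counts of means. All these settings share most of their events with the main one, so little movement was possible. The interval treats events as independent, which they are not, so staying within it says nothing about how stable a share is. With a change of at least 0.1, falls on day 3 numbered 20 (31 with no minimum), higher means 32 (61) and lower means 44 (74), because small changes are dropped. Among genes called on all 3 days, 8 means were higher and 15 lower. Requiring 10 bases of exon on both sides left 48 genes with exactly 1 annotated retained intron. No paired analysis was possible because the table has 1 value per group and no replicate values, and leaving out replicates in turn was not run for the same reason. Depth per event is unknown, and rounding to 2 decimals limits the smallest changes.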

Other observations

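Counted by chromosome, 16 genes had a higher and 18 a lower warm mean on chromosome 1, 12 and 10 on chromosome 2, 17 and 18 on chromosome 3, 9 and 12 on chromosome 4, and 7 and 16 on chromosome 5. These counts were looked at after the other values and were not tested.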
